A study of Homo sapiens with 12 samples.

Results

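The epidermal growth factor receptor (EGFR) ligands and ERBB receptors were read from 9 of the 28278 gene symbols in the count matrix: the ligands HBEGF, AREG, EREG, TGFA, BTC and EPGN, and the receptors EGFR, ERBB2 and ERBB3. The set was taken by symbol, and HBEGF led to its being chosen by its fall in HCQ-evolved OVCAR3. OVCAR3 values of these genes are therefore given as a description with no test, while CCL218 values and, for genes other than HBEGF, control values were tested. Of the 9 genes, 8 passed the filter on low counts in each line and EPGN did not.

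EGFR ligands are made as membrane-anchored precursors that surface proteases cut, and the freed ligand binds EGFR on the same or a neighbouring cell. Bound receptors pair with each other or with ERBB2, which has no known ligand of its own, or ERBB3, whose kinase is weak, and signal through RAS and the kinases RAF, MEK and ERK. Several ligand genes, HBEGF among them, are themselves transcribed in response to ERK, and the receptors are well known as growth drivers in carcinomas.

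The study asked how cancer cells that evolved resistance to hydroxychloroquine (HCQ), a drug that blocks lysosomal degradation and autophagy, differ from cells passaged without it. HCQ-evolved OVCAR3 and HCQ-evolved CCL218 had been through 15 HCQ pulses of 48 h each and were at passage 15, control OVCAR3 and control CCL218 were passaged in the absence of HCQ and were at passage 19, and HCQ-evolved cells then grew for 7 days without drug. Each of the 4 groups was 1 plate of 96 wells, from which cells of the left, middle and right parts were combined into pools L, M and R, and polyA RNA of each pool gave 1 library (3 per group, 12 in all). Each well was passaged on its own, so the pools of a group are separate sets of wells of the same plate, and p-values measure the spread between these pools. Passage number differed between HCQ-evolved and control cells in both lines and cannot be told apart from the drug.

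Libraries held 31147822 to 59965861 counts. OVCAR3 is labelled as ovarian cancer and CCL218 as colorectal, but markers of both tissues were found under both labels. In OVCAR3 controls 7 of 13 ovarian markers and 10 of 14 colorectal markers averaged above 1 CPM (counts scaled to the library total as adjusted by TMM, the trimmed mean of M-values). Of the ovarian markers there, KLK6 was at 433, MECOM at 43.6, WFDC2 at 22.7, MUC16 at 22.0, MSLN at 13.97 and PAX8 at 11.8 CPM, while WT1 was at 0.293 CPM and SOX17 at 0. Of the colorectal markers, LGALS4 was at 716, VIL1 at 237 and HNF4A at 75.2 CPM, while KRT20 was at 0 and GUCY2C, ISX and CDX1 were at 0.0372, 0.0452 and 0.291 CPM. The same numbers of both lists, 7 and 10, averaged above 1 CPM in CCL218 controls, where the intestinal factor CDX2 was at 23.1 CPM, PAX8 at 8.25 CPM and the intestinal keratin KRT20 reached at most 1 count per library. The SD of the log2 difference over genes was 0.55 between the controls of the 2 labels, 0.60 between HCQ-evolved and control OVCAR3, and 0.54 between HCQ-evolved and control CCL218. The line names used here are the labels, and a difference between lines is a difference between labels. Whether the libraries under the 2 labels come from different cell lines was not tested. Fibroblast markers were near 0 (summed over 8 genes, 0.693 to 3.37 CPM in every library), and of 8 leukocyte and endothelial markers PTPRC had at most 4 counts in any library, but LYZ averaged 1800 to 2363 CPM and CD14 5.57 to 16.1 CPM over groups, and the list summed to 1335 to 2780 CPM over libraries. Libraries also differed in how levels ran with transcript length: the rank correlation across genes between length and a library's deviation from its line ranged from -0.45 (control CCL218 L) to 0.51 (HCQ-evolved OVCAR3 R), with control OVCAR3 M at 0.47.

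HBEGF lies on chromosome 5 (hg38, GENCODE 44, 140332843 to 140346603, minus strand), AREG on chromosome 4 (74445136 to 74455005, plus strand) and EREG beside it (74365145 to 74388749, plus strand). BTC (74744759 to 74794523, minus strand) and EPGN (74308470 to 74316789, plus strand) are in the same stretch of chromosome 4, and TGFA is on chromosome 2 (70447284 to 70554193, minus strand). EGFR is on chromosome 7 (55019017 to 55211628, plus strand), ERBB2 on chromosome 17 (39687914 to 39730426, plus strand) and ERBB3 on chromosome 12 (56076799 to 56103505, plus strand). Exons of EGFR overlap the antisense gene EGFR-AS1, and exons of ERBB2 overlap MIEN1 and PGAP3 on the other strand. The strand setting of the counting is not given in the sources used here, so reads of those pairs cannot be told apart. Exons of ERBB3 overlap a protein-coding gene on the same strand that is absent from the count matrix. Strand would not separate the reads of that pair.

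Promoter windows of 300 bases (RefSeq, GRCh38.p14) were found for 8 of the 9 genes. Those of HBEGF, AREG and EREG are shown because HBEGF carried the widest difference of the set, AREG also had all HCQ-evolved OVCAR3 pools below the controls, and its neighbour EREG did not. The windows are chr5:140346554-140346853 (minus strand) for HBEGF, chr4:74444886-74445185 (plus strand) for AREG and chr4:74364895-74365194 (plus strand) for EREG. Capitals mark matches on either strand to 5 motifs. The AP-1 motif was searched as TGANTCA, and the cAMP response element (CRE) as TGACGTCA. The ETS motif was searched as CCGGAAGT. The SP1 motif was searched as GGGCGG. The TATA box was searched as TATAAA.
HBEGF promoter: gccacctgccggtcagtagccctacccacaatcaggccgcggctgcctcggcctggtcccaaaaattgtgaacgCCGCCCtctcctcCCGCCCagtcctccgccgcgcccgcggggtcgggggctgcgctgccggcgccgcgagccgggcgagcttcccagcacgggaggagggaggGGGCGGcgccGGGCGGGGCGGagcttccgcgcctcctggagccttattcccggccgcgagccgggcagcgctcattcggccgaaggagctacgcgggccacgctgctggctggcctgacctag
AREG promoter: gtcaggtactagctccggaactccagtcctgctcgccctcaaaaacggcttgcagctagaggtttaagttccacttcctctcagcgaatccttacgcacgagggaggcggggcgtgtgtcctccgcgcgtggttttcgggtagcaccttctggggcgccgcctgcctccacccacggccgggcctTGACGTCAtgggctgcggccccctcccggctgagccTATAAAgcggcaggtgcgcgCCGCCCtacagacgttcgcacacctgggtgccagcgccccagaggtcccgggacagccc
EREG promoter: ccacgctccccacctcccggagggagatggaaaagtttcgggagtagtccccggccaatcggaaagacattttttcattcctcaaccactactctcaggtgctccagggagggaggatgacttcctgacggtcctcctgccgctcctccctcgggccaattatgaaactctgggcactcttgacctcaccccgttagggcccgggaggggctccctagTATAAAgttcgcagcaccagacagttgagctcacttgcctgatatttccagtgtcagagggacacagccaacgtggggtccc
The HBEGF window held 5 SP1 matches, 2 of them overlapping, and none of the other motifs. The AREG window held 1 CRE, 1 TATA and 1 SP1 match, and the EREG window held 1 TATA match alone. Of all 35116 RefSeq promoter windows, 7.71% held an AP-1 match, 1.85% a CRE, 4.14% an ETS, 45% an SP1 and 11.5% a TATA match. These are matches of letters in 1 window and not measured binding.

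HBEGF encodes heparin-binding EGF-like growth factor, a ligand of EGFR and ERBB4. Its level in control OVCAR3 was 52.3 (L), 53.3 (M) and 59.4 (R) CPM, normalized by TMM (trimmed mean of M-values). In HCQ-evolved OVCAR3 it was 4.05 (L), 3.75 (M) and 3.50 (R) CPM. Every control pool was thus far above every HCQ-evolved pool, and the pools of each group lay close together. The means were 55.0 ± 3.86 and 3.77 ± 0.276 CPM (SD, n = 3), a log2 fold change of -3.89 (SE 0.19), or 14.8-fold lower. HBEGF ranked 11th lowest of 12204 tested genes in that line by log2 fold change. In a pool of wells, fewer cells expressing the gene and less RNA per cell cannot be told apart.

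In control CCL218, HBEGF was at 12.5 (L), 11.7 (M) and 13.2 (R) CPM. HCQ-evolved CCL218 pools held 9.80 (L), 8.20 (M) and 9.30 (R) CPM. The groups did not overlap, with every HCQ-evolved pool lower. The log2 fold change was -0.47 (SE 0.14, 95% interval -0.80 to -0.15, adjusted p = 0.0941, edgeR quasi-likelihood), which did not pass the threshold of 0.05. It passed with DESeq2 (adjusted p = 0.0121), with length and GC trends removed (adjusted p = 0.0482) and without control CCL218 L (adjusted p = 0.0257, edgeR), settings that called 17.7%, 14.8% and 25.2% of all genes, and adjusted p ranged from 0.0121 to 0.379 over 14 alternatives. The log2 fold change in CCL218 was above that in OVCAR3 by 3.43. Control CCL218 was itself lower in HBEGF than control OVCAR3, by a log2 difference of -2.15, and HCQ-evolved OVCAR3 was the lowest of the 4 groups.

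**Figure D1:**
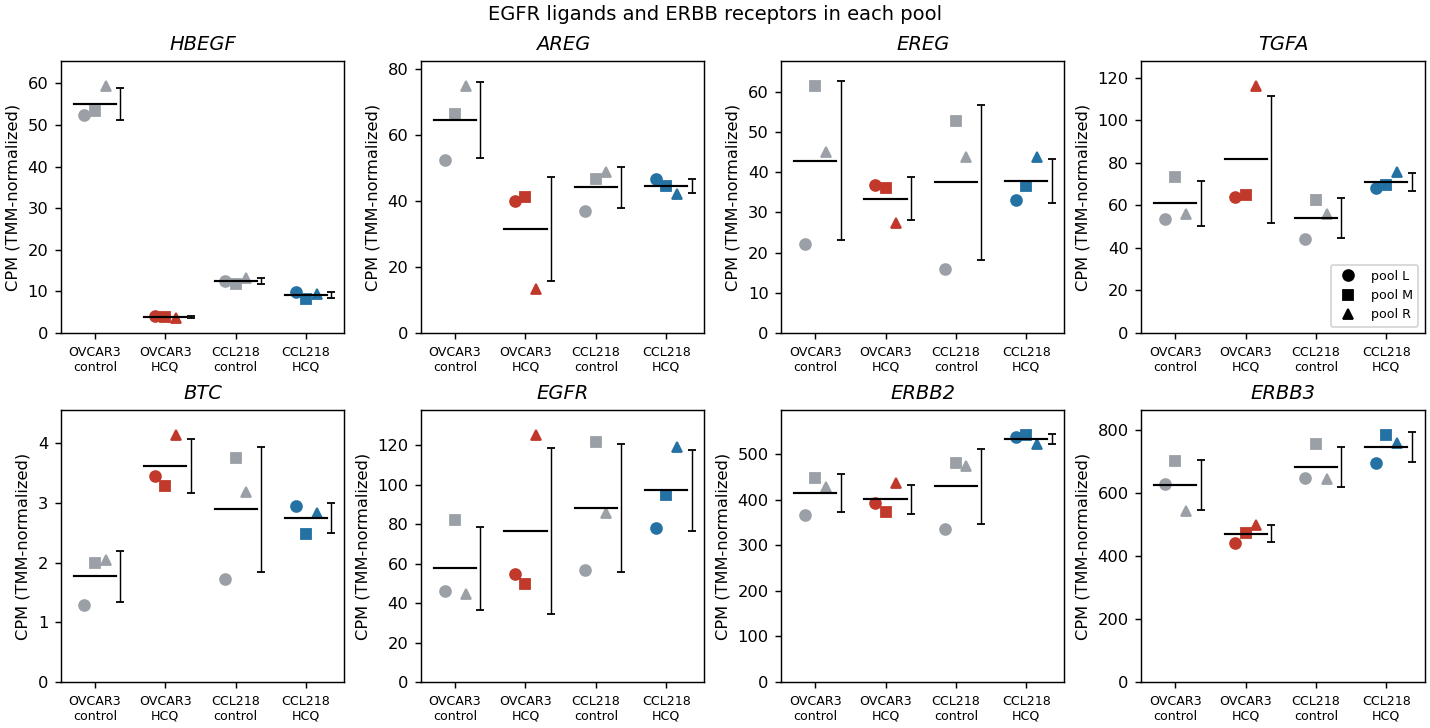
TMM-normalized CPM (y axes, each from 0) of 8 genes in every pool, by group (x axes), with symbols for pools L, M and R, horizontal lines at group means and bars of 1 SD (n = 3). HBEGF in the 3 HCQ-evolved OVCAR3 pools sits between 3.50 and 4.05 CPM, below every other pool, while AREG, TGFA and EGFR in HCQ-evolved OVCAR3 are set apart by pool R.

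AREG encodes amphiregulin, a low-affinity EGFR ligand. Control OVCAR3 pools held 52.4 (L), 66.4 (M) and 75.0 (R) CPM, and HCQ-evolved pools 39.9 (L), 41.2 (M) and 13.3 (R) CPM. All HCQ-evolved pools were below all controls, and pool R was lower than L and M. The log2 fold change was -1.06 (SE 0.40), and it was -0.70 with pool R of the HCQ-evolved cells left out. In CCL218, AREG was at 44.2 ± 6.24 CPM in controls and 44.4 ± 2.16 CPM in HCQ-evolved pools (SD, n = 3), with a log2 fold change of -0.01 (95% interval -0.34 to 0.31, adjusted p = 0.959, edgeR). CCL218 pools of both groups overlapped.

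EREG encodes epiregulin, which binds EGFR and ERBB4. In OVCAR3 it was at 22.2 (L), 61.5 (M) and 44.9 (R) CPM in controls and 36.9 (L), 36.2 (M) and 27.3 (R) CPM in HCQ-evolved pools. The control pools spanned all HCQ-evolved pools, and the log2 fold change was -0.38 (SE 0.35). The wide control range held in CCL218 too, where control pools were at 15.9 (L), 52.9 (M) and 43.9 (R) CPM and HCQ-evolved pools at 33.0 (L), 36.7 (M) and 43.8 (R) CPM. There the log2 fold change was -0.01 (95% interval -0.92 to 0.91, adjusted p = 0.994, edgeR). EREG was lowest in pool L of both control plates.

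TGFA encodes transforming growth factor alpha, a high-affinity EGFR ligand. It was at 53.7 (L), 73.2 (M) and 55.9 (R) CPM in control OVCAR3 and 64.2 (L), 64.7 (M) and 116 (R) CPM in HCQ-evolved OVCAR3. The groups overlapped, and the log2 fold change of 0.41 (SE 0.29) was 0.05 without HCQ-evolved R. In CCL218, TGFA was at 44.1 (L), 62.4 (M) and 56.1 (R) CPM in controls and 68.2 (L), 69.4 (M) and 76.0 (R) CPM in HCQ-evolved pools. All HCQ-evolved CCL218 pools were higher, by a log2 fold change of 0.37 (95% interval 0.02 to 0.72, adjusted p = 0.180, edgeR), which did not pass.

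BTC encodes betacellulin, a ligand of EGFR and ERBB4. It had 52 to 245 counts per library. Control OVCAR3 pools were at 1.28 (L), 1.996 (M) and 2.04 (R) CPM and HCQ-evolved pools at 3.45 (L), 3.28 (M) and 4.14 (R) CPM. Every HCQ-evolved pool was above every control, the reverse of HBEGF, with a log2 fold change of 1.01 (SE 0.28). In CCL218 the pools overlapped (2.89 ± 1.04 CPM in controls and 2.75 ± 0.248 in HCQ-evolved pools, SD, n = 3), and the log2 fold change was -0.10 (95% interval -0.78 to 0.59, adjusted p = 0.856, edgeR). EPGN, which encodes epigen, had 0 to 8 counts per library, and only HCQ-evolved OVCAR3 M, with 8, exceeded the floor of 3 counts.

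EGFR itself was at 46.2 (L), 81.996 (M) and 44.5 (R) CPM in control OVCAR3 and 54.8 (L), 49.9 (M) and 125 (R) CPM in HCQ-evolved OVCAR3. The highest pool of each group, M of the controls and R of the HCQ-evolved cells, was also the pool in which long transcripts were high, and the EGFR transcript is 9905 bases long. The part of that trend in the EGFR values was not tested in single pools. The log2 fold change was 0.40 (SE 0.42) over all pools and -0.17 (SE 0.29) without HCQ-evolved R. In CCL218, EGFR was at 88.1 ± 32.4 CPM in controls and 97.3 ± 20.6 CPM in HCQ-evolved pools (SD, n = 3), with a log2 fold change of 0.12 (95% interval -0.53 to 0.78, adjusted p = 0.806, edgeR).

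ERBB2, the receptor with no known ligand, was at 367 (L), 448 (M) and 429 (R) CPM in control OVCAR3 and 391.6 (L), 374 (M) and 436 (R) CPM in HCQ-evolved OVCAR3. The groups overlapped, with a log2 fold change of -0.07 (SE 0.18). In CCL218 it was at 335 (L), 481 (M) and 474 (R) CPM in controls and 537 (L), 542 (M) and 522 (R) CPM in HCQ-evolved pools. Every HCQ-evolved CCL218 pool was higher, but the log2 fold change of 0.29 (95% interval -0.08 to 0.66, adjusted p = 0.290, edgeR) did not pass.

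ERBB3, the kinase-impaired partner of ERBB2, was at 628 (L), 701 (M) and 543 (R) CPM in control OVCAR3 and 442 (L), 471 (M) and 498 (R) CPM in HCQ-evolved OVCAR3. All HCQ-evolved pools were lower, by a log2 fold change of -0.43 (SE 0.18). In CCL218 the pools overlapped (682 ± 63.8 CPM in controls and 745 ± 46.2 in HCQ-evolved pools, SD, n = 3), and the log2 fold change was 0.10 (95% interval -0.19 to 0.40, adjusted p = 0.632, edgeR).

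**Figure D2:**
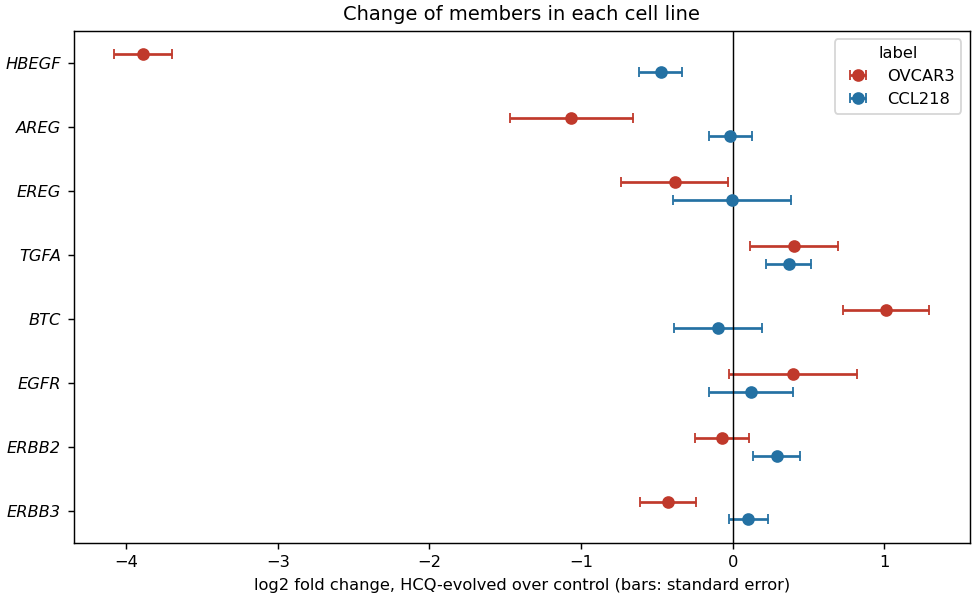
Log2 fold change of HCQ-evolved over control pools (x axis) for 8 genes (y axis), in OVCAR3 (red) and CCL218 (blue), with bars of 1 standard error from the edgeR fit (3 pools per group). HBEGF in OVCAR3, at -3.89, lies apart from all other points, and the CCL218 points run from -0.47 (HBEGF) to 0.37 (TGFA).

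Counted together, in OVCAR3 1 of the 8 genes that passed the filter (HBEGF, the gene that led to the choice) was past the threshold, lower, where 1.86% of 12204 genes were called, and 4 of the 8 had pools that did not overlap (1 higher and 3 lower), where 25.9% of genes did; HBEGF was selected on this contrast, so nothing is read from those counts. In CCL218 0 of the 8 were called by edgeR, where 6.46% of 12241 genes were. At an unadjusted p under 0.05 there were 2 of the 8 (HBEGF and TGFA), against 3084 of the 12241. DESeq2 called 1 of the 8 in CCL218 (HBEGF), against 17.7% of all genes, and voom called 0. Pools did not overlap for 3 of the 8 in CCL218 (HBEGF lower, TGFA and ERBB2 higher), against 36.1% of all genes. The median log2 fold change of the 8 was 0.05 in CCL218, against -0.02 over all genes tested.

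Between the controls, HBEGF aside, 0 of 7 genes were called by edgeR, where 2.05% of 12324 genes were. DESeq2 and voom also called 0 of the 7. Over all genes, 1512 of 12324 had an unadjusted p under 0.05 in edgeR, and of the 7 only 1 gene did. That gene was AREG, lower in CCL218 by a log2 difference of -0.56 (95% interval -1.02 to -0.10, adjusted p = 0.298, edgeR), and the only 1 of the 7 whose pools did not overlap, where 17.6% of all genes did not. Pools of the same position deviated together in the 2 control plates, and with a replicate block for position 3 of the 7 passed in edgeR, where 36% of all genes did. These were AREG (-0.55, adjusted p = 0.00104) lower in CCL218, and EGFR (0.60, adjusted p = 0.00193) and BTC (0.67, adjusted p = 0.0400) higher. With length and GC trends also removed, 3 passed again, but they were AREG (-0.44, adjusted p = 0.000121), EREG (-0.51, adjusted p = 2.37e-05) and TGFA (-0.44, adjusted p = 9.88e-05), all lower in CCL218. In that fit 38.2% of genes were called, 962 higher and 3748 lower, the median of all genes was itself at -0.13, and the split with the block alone was 2230 higher and 2212 lower. AREG was the gene called in both. The controls in these comparisons are the same libraries that served within each line.

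On a scale corrected for length (TPM, counts divided by merged exon length and scaled to the library), ERBB3 and ERBB2 had the highest group means of the 9 genes in all 4 groups, and AREG the highest of the ligands. In control OVCAR3 the order was ERBB3 (200.4 TPM), ERBB2 (151), AREG (148), HBEGF (68.5), TGFA (47.0), EREG (29.2), EGFR (13.9), BTC (2.53) and EPGN (0). The neighbours whose pools did not overlap there were AREG and HBEGF, EGFR and BTC, and BTC and EPGN. In HCQ-evolved OVCAR3, HBEGF moved from the fourth place to the eighth, at 4.85 TPM and overlapping BTC at 5.37 TPM. HBEGF was in the seventh place in control CCL218 (18.5 TPM, overlapping EGFR at 25.3 TPM) and HCQ-evolved CCL218 (13.9 TPM, not overlapping EGFR at 28.0 TPM). EGFR was thus well below its partners ERBB2 and ERBB3 in every group.

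The 6 ligands summed to 295 ± 78.0 TPM in control OVCAR3 and 170 ± 10.9 TPM in HCQ-evolved OVCAR3 (SD, n = 3). Every HCQ-evolved pool, at most 181 TPM, was below every control, at least 213 TPM. That sum includes HBEGF, whose fall in OVCAR3 led to the choice of the set, so nothing is read from this separation. In CCL218 the sums were 225 ± 66.1 TPM in controls and 239 ± 11.95 TPM in HCQ-evolved pools, and they overlapped. HBEGF made up 23.8% ± 3.03 of the ligand TPM in control OVCAR3 and 2.85% ± 0.169 after evolution, and 8.58% ± 1.86 and 5.82% ± 0.461 in CCL218. TGFA made up 28.1% (L), 27.9% (M) and 60.3% (R) of ligand TPM in HCQ-evolved OVCAR3, where pool R was the only library in which TGFA exceeded AREG.

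**Figure D3:**
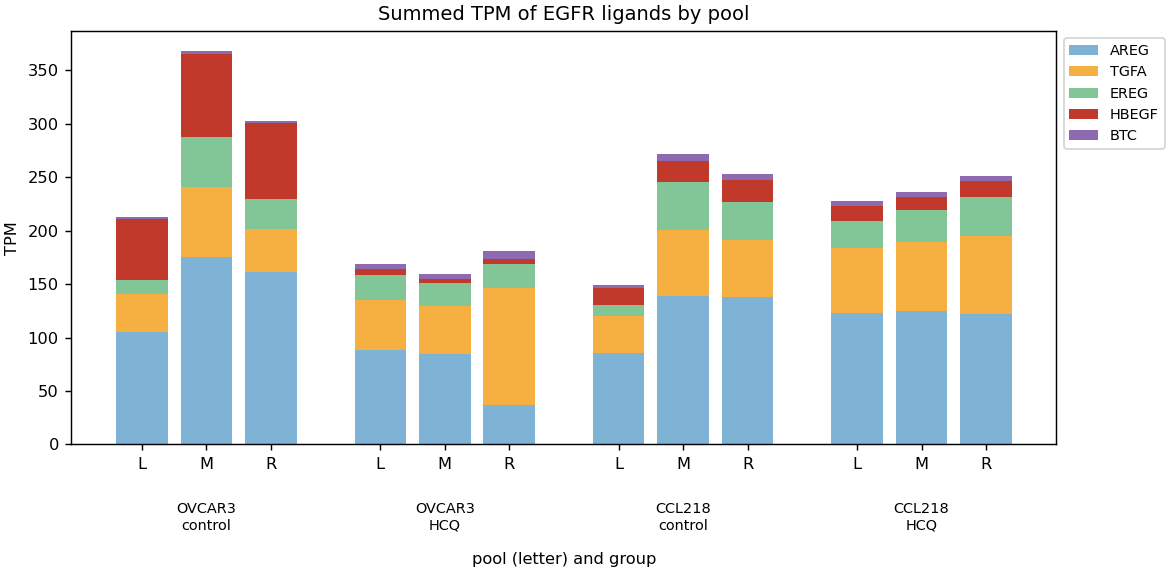
Summed TPM of the EGFR ligands (y axis) in each pool (x axis, grouped by line and treatment), stacked by ligand. EPGN is too low to draw. The HBEGF layer fills 21.0% to 27.0% of the control OVCAR3 bars and 2.66% to 2.98% of the HCQ-evolved OVCAR3 bars, and TGFA fills 60.3% of HCQ-evolved OVCAR3 R.

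Among other ERBB ligands and ERBB4, 1 of 6 genes was tested in OVCAR3 and 0 in CCL218. NRG4, a neuregulin that binds ERBB4, was at 0.839 (L), 0.312 (M) and 0.889 (R) CPM in control OVCAR3 and 2.45 (L), 2.50 (M) and 3.25 (R) CPM in HCQ-evolved OVCAR3. The pools did not overlap, where 25.9% of all genes did not, and the log2 fold change of 1.96 (SE 0.41, adjusted p = 0.0589, edgeR) did not pass. Only the HCQ-evolved pools brought NRG4 past the filter of 1 CPM. A higher value there was thus built into its entry, and nothing is read from it. EGF, the founding EGFR ligand, was too low to be tested in either line, at 4 to 20 counts per library in control OVCAR3 (0.280 ± 0.191 CPM) and 54 to 64 counts in HCQ-evolved OVCAR3 (1.04 ± 0.0493 CPM, SD, n = 3). In CCL218 it had 6 to 10 counts in controls (0.178 ± 0.0374 CPM) and 42 to 104 counts in HCQ-evolved pools (1.32 ± 0.447 CPM). Every HCQ-evolved pool of both lines was above every control of its line in EGF.

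Of 12 genes for processing and shedding of ligands, 10 were tested. In OVCAR3, where 1.86% of all genes passed, 0 of the 10 passed by edgeR. At an unadjusted p under 0.05 there was 1 of the 10, against 1983 of 12204 genes. RHBDL2, a rhomboid protease of the cell surface, had the smallest p of the 10 in OVCAR3 (0.79, SE 0.18, adjusted p = 0.0728, edgeR). In CCL218, 1 of the 10 rose and 2 fell, where 3.82% of all genes rose and 2.64% fell. RHBDL2 rose from 36.7 ± 2.77 to 63.4 ± 1.29 CPM (SD, n = 3; log2 fold change 0.77, adjusted p = 0.0136, edgeR). The inactive rhomboid RHBDF2 (iRhom2), which carries the sheddase ADAM17 to the surface, fell from 37.9 ± 5.58 to 23.5 ± 2.06 CPM (-0.72, adjusted p = 0.0433, edgeR). FRMD8, which stabilizes that complex, fell from 87.9 ± 9.21 to 56.3 ± 3.54 CPM (-0.67, adjusted p = 0.0282, edgeR). The count of 3 was the same with a replicate block, but it was 0 without control CCL218 R or without any one HCQ-evolved CCL218 pool, 1 without control M and 4 without control L. ADAM17, which cuts HBEGF, AREG, TGFA and EREG precursors, did not pass in either line (0.58 in OVCAR3, adjusted p = 0.650, and 0.31 in CCL218, adjusted p = 0.629, edgeR).

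Of 23 receptor adaptors and proximal signalling genes, 22 were tested and 0 passed in either line, with medians of 0.25 in OVCAR3 and 0.22 in CCL218. The smallest p was that of PLCG1, the phospholipase that binds active EGFR, at -0.75 in OVCAR3 (adjusted p = 0.119) and -0.63 in CCL218 (adjusted p = 0.0679, edgeR). With a replicate block in CCL218, which called 14.2% of all genes, 2 of the 22 passed, 1 in each direction, and PLCG1 was the lower one (-0.61, adjusted p = 0.0316, edgeR). All 21 genes of receptor endocytosis and degradation were tested and 0 passed in either line. HGS, which sorts ubiquitinated receptors in endosomes, had the smallest p in both (-0.40, adjusted p = 0.426, and -0.46, adjusted p = 0.232, edgeR). At an unadjusted p under 0.05 there were 3 of the 22 adaptor genes in OVCAR3 and 4 in CCL218, and 0 endocytosis genes in both. Over all genes, 1983 of 12204 in OVCAR3 and 3084 of 12241 in CCL218 were under it. By adjusted p, 1.86% of all genes passed in OVCAR3 and 6.46% in CCL218. The adaptor and endocytosis lists were not counted by another tool.

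Of 23 inhibitors of receptors and ERK, 2 fell in OVCAR3, where 1.21% of all genes did, and 1 fell in CCL218, where 2.64% did. DUSP5, a nuclear phosphatase of ERK, was at 33.8 (L), 36.7 (M) and 36.5 (R) CPM in control OVCAR3 and 5.92 (L), 6.88 (M) and 3.94 (R) CPM in HCQ-evolved OVCAR3 (log2 fold change -2.70, SE 0.24, adjusted p = 0.00706, edgeR). In CCL218, DUSP5 was at 7.78 ± 1.19 CPM in controls and 8.12 ± 1.06 CPM in HCQ-evolved pools (SD, n = 3). SPRY4, a Sprouty protein that restrains RAS signalling, fell in both lines, from 59.0 ± 10.3 to 22.7 ± 5.68 CPM in OVCAR3 (-1.40, adjusted p = 0.0460) and from 79.1 ± 4.65 to 42.4 ± 2.44 CPM in CCL218 (-0.93, adjusted p = 0.00682, edgeR). The median of the list was -0.09 in OVCAR3 and 0.17 in CCL218. With a replicate block in CCL218, 4 inhibitors were higher and 1 was lower, where 7.82% of all genes were higher and 6.43% lower. The OVCAR3 count of 2 was 0 without control L or without control R, 1 with control M, HCQ-evolved L or HCQ-evolved M left out, and 5 without HCQ-evolved R.

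Of 33 ERK-responsive transcripts (immediate early genes and later ERK targets), 30 were tested. The list was chosen with earlier results of these data known, so its counts and p-values are a description. In OVCAR3, 0 rose and 11 fell, where 0.647% of all genes rose and 1.21% fell, and the median log2 fold change was -0.98 against 0.02 over all genes. In CCL218, 1 rose and 1 fell, where 3.82% of all genes rose and 2.64% fell, and the median was 0.03 against -0.02. The 11 were EGR3, ATF3, CCN2, EGR2, FOSB, NR4A1, CCN1, FOSL1, JUN, SPRY4 and CCND1. Others of the list moved less or rose in OVCAR3: ETV5 was at 0.03, ETV1 at -0.09, ETV4 at -0.22 and PHLDA1 at 0.49. None of these passed. Of the 30, 5 had a log2 fold change above 0, and ERK activity itself was not measured. ATF3, a stress-induced AP-1 family factor, was at 208 (L), 193 (M) and 164 (R) CPM in control OVCAR3 and 7.79 (L), 4.77 (M) and 5.83 (R) CPM in HCQ-evolved OVCAR3 (-4.96, SE 0.27, adjusted p = 0.000892, edgeR). The FOS-family gene FOSB fell from 776 ± 95.4 to 118 ± 20.6 CPM (-2.73, adjusted p = 0.00604, edgeR). The nuclear receptor NR4A1 fell from 249 ± 33.6 to 40.3 ± 6.60 CPM (-2.65, adjusted p = 0.00604, edgeR). EGR3, a zinc finger factor, had at most 2 counts in any HCQ-evolved OVCAR3 pool. It was at least 62.6-fold lower than in controls, taking the floor of 3 counts in each library. The median of the list was -0.98 also with EGR3 at that bound. Only the control pools brought EGR3 past the filter in OVCAR3, so a lower value after evolution was built into its entry.

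In CCL218 the gene that rose was KLF4, a Kruppel-like factor, from 19.3 ± 1.70 to 52.9 ± 3.98 CPM (SD, n = 3; log2 fold change 1.43, adjusted p = 0.00253, edgeR), and the gene that fell was SPRY4. In OVCAR3, KLF4 was at 22.4 ± 5.98 and 10.98 ± 2.91 CPM and did not pass. The 2 lines were then compared in 1 model: 0.872% of 12613 genes differed in log2 fold change between them, and 11 of the 30 ERK-responsive transcripts did, all with the higher value in CCL218. The controls differed in this list as well: 5 of the 30 were lower in control CCL218 than in control OVCAR3 and 0 were higher, where 1.1% and 0.949% of all genes were, among them ATF3 (-2.33, adjusted p = 0.0191), NR4A1 (-2.26, adjusted p = 0.0217) and FOSB (-1.70, adjusted p = 0.0236, edgeR). With the replicate block 19 were lower and 2 higher, where 17.9% and 18.1% of all genes were. The fold changes within each line use those same controls. The OVCAR3 count of 11 depended on the libraries: it was 1 without control L, 2 without control R, 4 without control M or without HCQ-evolved M, and 5 without HCQ-evolved L, and it was 19 with DESeq2, which called 9.06% of all genes. The single lower gene in CCL218 became 0 without any one HCQ-evolved CCL218 pool and 6 without control L, and with a replicate block 5 were higher and 2 lower there, beside 7.82% and 6.43% of all genes. The count of 11 that differed between lines was 6 without control CCL218 R, HCQ-evolved CCL218 L or HCQ-evolved CCL218 M, and 7 without control OVCAR3 M, control OVCAR3 R or control CCL218 M. Of 9 colorectal markers tested, 0 were called in OVCAR3, where 1.86% of all genes were. At an unadjusted p under 0.05 there were 2 of the 9, against 1983 of 12204 genes. Of the 9, 4 were above 0, and LGALS4 and VIL1 were lower in every HCQ-evolved pool (log2 fold changes -1.01 and -1.12, adjusted p = 0.318 and 0.0708, edgeR). The summed level of all 14 was 1108 to 1330 CPM in control and 307 to 903 CPM in HCQ-evolved OVCAR3. Its largest terms were LGALS4 (mean 716 to 364 CPM) and VIL1 (237 to 111 CPM), so it does not stand for the whole list. PHGR1 (77.5 ± 37.9 to 89.9 ± 44.4 CPM, SD, n = 3) and GPA33 (3.05 ± 0.335 to 5.28 ± 3.07 CPM) averaged higher in HCQ-evolved OVCAR3. CDX2 (10.7 ± 2.24 to 6.33 ± 4.84 CPM) and HNF4A (75.2 ± 12.6 to 40.3 ± 18.3 CPM) averaged lower there. In CCL218, 5 of the 9 rose, where 3.82% of all genes did, and the median was 1.37. CDH17 was among them (3.84 ± 1.30 to 53.1 ± 6.96 CPM, SD, n = 3). LGALS4, the largest term, averaged lower there (1039 ± 262 to 793 ± 49.4 CPM), and VIL1 was at 187 CPM in both groups. The part of the colorectal markers in the ERK-responsive values of either line was not tested.

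**Figure D4:**
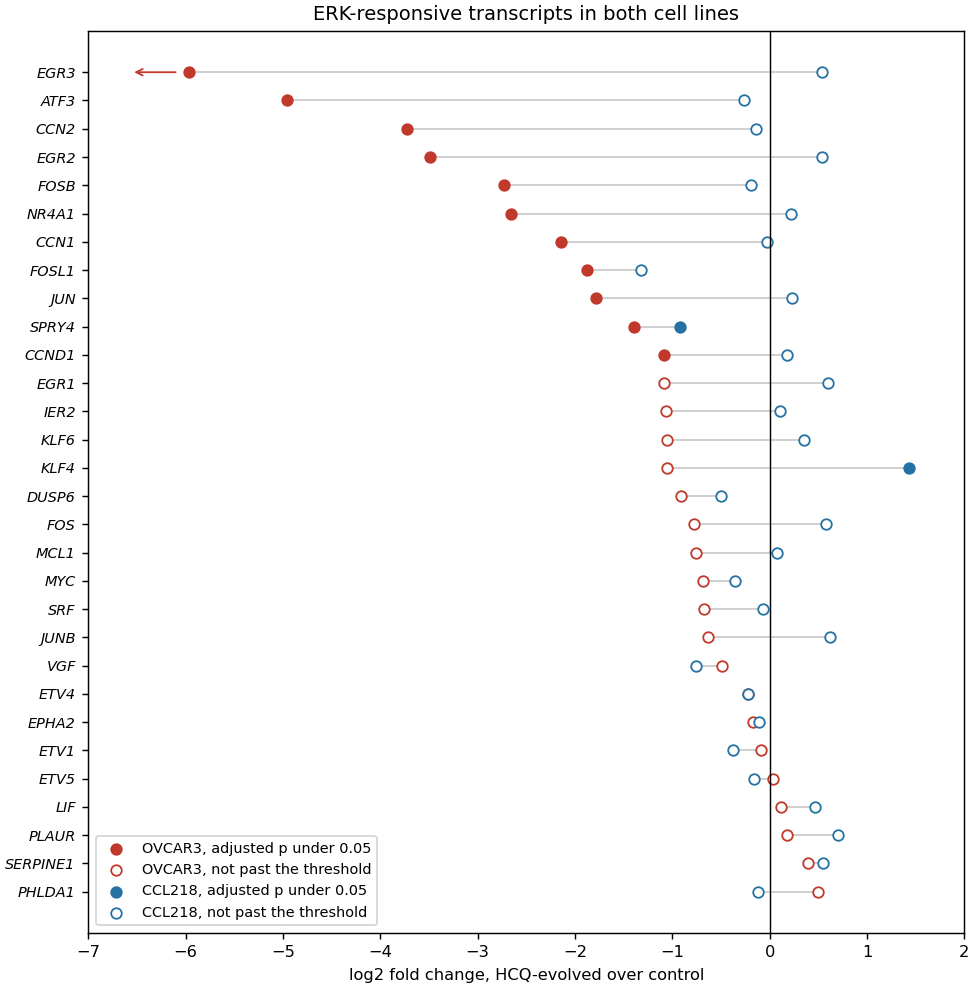
Log2 fold change of HCQ-evolved over control pools (x axis) for the 30 ERK-responsive transcripts tested (y axis), in OVCAR3 (red) and CCL218 (blue), with filled points for adjusted p under 0.05 (edgeR) and EGR3 in OVCAR3 drawn at its bound with an arrow. Filled red points, 11 in all, lie to the left of 0, while the blue points lie on both sides.

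The genes whose pattern over the 12 libraries was most like that of HBEGF (Pearson correlation of log2 CPM, among 12613 genes) were CNN3 (0.974), FOSB (0.968), ATF3 (0.967), DUSP5 (0.945) and DMBT1 (0.935). CNN3, a calponin, was at 3.81 ± 0.492 CPM in control OVCAR3, 0.326 ± 0.0575 in HCQ-evolved OVCAR3, 0.799 ± 0.128 in control CCL218 and 0.555 ± 0.167 in HCQ-evolved CCL218 (SD, n = 3). These correlations rest on 4 groups and share the libraries and their depth. CNN3 and DMBT1 passed the filter of 1 CPM only through the control OVCAR3 pools, where HBEGF was also highest. Their likeness to HBEGF was thus partly built in. The ranking for HBEGF also holds the OVCAR3 fall by which it was chosen, so nothing further is read from it. For the other genes the closest were SDR16C5 (0.962) and HGD (0.961) to AREG, UGDH (0.963) and PJA1 (0.900) to EREG, RNF24 (0.979) and RUNX2 (0.977) to TGFA, and OPA3 (0.964) and MCM4 (0.959) to BTC. The closest to EGFR were USP9X (0.993) and HELZ (0.992), to ERBB2 SDE2 (0.980) and POF1B (0.960), and to ERBB3 DENND1C (0.965) and FER1L6 (0.952). In OVCAR3, USP9X and HELZ peaked, like EGFR, in control M and HCQ-evolved R, where long transcripts were high. The part of that trend was not tested. In HCQ-evolved OVCAR3, FER1L6 was at most 0.0169 CPM, and DMBT1 was at 0.317 (L), 0.0195 (M) and 0 (R) CPM, so their correlations include values near 0. Among the members themselves, HBEGF ran with AREG (0.717) and against BTC (-0.77) over the same 12 libraries. Those include the OVCAR3 pools by which HBEGF was chosen, so nothing is read from these values. In CCL218 the log2 fold changes of AREG and BTC were -0.01 and -0.10.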

How the data were processed

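The authors aligned RNA-seq reads to hg38 with STAR, removed duplicates with RmDup and counted them per gene with featureCounts, and the deposited counts of 28278 symbols in 12 libraries were used as given. No tool version or strand setting is given in the sources used here. Genes that reached 1 CPM in 3 or more libraries entered the quasi-likelihood test of edgeR 4.0.16 (R 4.3.3) with TMM scaling, 1 fit per line, 1 for the controls and 1 of all libraries for the difference between lines, with Benjamini-Hochberg adjustment over all genes tested and a threshold of 0.05. DESeq2 1.42.0, limma 3.58.1 (voom), other scaling and filtering, removal of length and GC trends, blocking and omission of each pool were alternatives. The pipeline was tested on simulated data. CPM values used TMM library sizes, while the filter at 1 CPM used library totals. TPM used merged exon lengths of GENCODE 44, which matched 25763 symbols (91.1%). Libraries held 31147822 to 59965861 counts, and a floor of 3 counts covers counting error only.

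The members and gene lists were chosen with earlier results of these data known. Named genes were all members, up to 3 genes per list, line and direction with the smallest adjusted p (otherwise the gene with the smallest p), and the genes most correlated with each member. ADAM17, EGF and single marker genes were named after their values were seen, as were the 11 ERK-responsive genes listed together. The same holds for ETV1, ETV4, ETV5 and PHLDA1. Sharing of a plate position paired the pools where deviations from group means correlated above 0.1 at all 3 positions: 0.51, 0.23 and 0.19 (L, M, R) in CCL218 and 0.85, 0.80 and 0.24 between controls, but 0.40, -0.66 and -0.48 in OVCAR3. Mitochondrially encoded genes, exome and single-cell data were not analysed here.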

Additional observations from a re-analysis of the deposited data

Results flagged for a closer look

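Among the single genes named above from the pathway lists, 11 differed between lines in their log2 fold change after HCQ evolution (interaction in edgeR, 3 pools per group). Each had the higher value in CCL218. Of the list genes not named there, SOCS3 (1.82, adjusted p = 0.0183) and FOS (1.38, adjusted p = 0.0499977) also passed in edgeR. These 11 hold DUSP5 and not FOS, so they are not the same set as the 11 ERK-responsive transcripts that differed between lines. The difference (CCL218 minus OVCAR3) was 4.72 for ATF3 (adjusted p = 0.00167), 2.90 for NR4A1 (adjusted p = 0.0131) and 2.76 for DUSP5 (adjusted p = 0.00199). It was 2.56 for FOSB (adjusted p = 0.00613) and 2.50 for KLF4 (adjusted p = 0.00474). It was 4.03 for EGR2 (adjusted p = 0.00190), 3.60 for CCN2 (adjusted p = 0.0223) and 2.14 for CCN1 (adjusted p = 0.0267). It was 2.03 for JUN (adjusted p = 0.0357) and 1.28 for CCND1 (adjusted p = 0.0178). EGR3 had a fitted difference of 8.44 (adjusted p = 0.000784), whose size depends on the prior count because HCQ-evolved OVCAR3 pools held at most 2 counts of it. All 11 were lower in every HCQ-evolved OVCAR3 pool than in any OVCAR3 control, as were 11.4% of all genes tested. KLF4 was higher in every HCQ-evolved CCL218 pool than in any CCL218 control, as were 19.8% of all genes tested. The 11 were picked by a difference between these same pools, so their separation is a description and no further support. HBEGF, with a difference of 3.43, was chosen by its fall in OVCAR3 and was not tested for it.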

How the results depend on the processing

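HBEGF in OVCAR3 kept its direction and size in all 15 alternatives (-3.94 to -3.83). HBEGF in CCL218 was called under DESeq2 (-0.48) and with length and GC trends removed (-0.44), and ran from -0.53 to -0.39 with 1 pool left out. The members called in CCL218, 0 by edgeR, were 1 under both of those settings and 0 to 1 with 1 pool left out. Counts over all genes moved most, and beyond the loss of samples when a pool is left out the cause was not tested. In OVCAR3, 227 became 1105 with DESeq2, 549 with no filter, 1165 in 1 fit of all libraries, 81 with a replicate block (where positions did not pair), 789 with length and GC trends removed, 736 without the 2 libraries of steepest length trend (chosen after seeing the data) and 3 to 557 with 1 pool left out. In CCL218, 791 became 2172 with DESeq2, 1744 with a replicate block, 1810 with trends removed, 1823 with both and 102 to 3047 with 1 pool left out. Between controls, 253 became 734 with DESeq2, 394 with no filter, 431 in 1 fit, 464 with trends removed and 25 to 471 with 1 pool left out. With a replicate block it became 4442, and 4710 with trends removed too, and the members called went from 0 to 3 in each. ERK-responsive genes lower in OVCAR3, 11, were 19 with DESeq2 and in 1 fit, 7 with a replicate block and 1 to 14 with 1 pool left out. In CCL218 that count, 1, was 3 with DESeq2, 2 with no filter, with a replicate block and with block and trends together, and 0 to 6 with 1 pool left out. The count differing between lines, 11, was 15 with trends removed and 6 to 12 with 1 pool left out. These ERK counts were added after seeing the data.

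Directions turned for members that edgeR did not call in the fits of the report, though EREG, which turned between controls, was called there with block and trends removed together. In OVCAR3, EREG was 0.088 without the 2 libraries of steepest length trend, and EGFR ran from -0.17 to 0.74 with 1 pool left out. In CCL218, AREG was 0.017 with no filter, 0.043 with trends removed and 0.067 with the replicate block too, and EREG was 0.15 with voom, 0.014 with no filter and 0.14 with the replicate block. With 1 pool left out, CCL218 AREG ran from -0.12 to 0.055, EREG from -0.37 to 0.32, BTC from -0.36 to 0.14 and EGFR from -0.11 to 0.43. Between controls, ERBB2 was -0.16 and ERBB3 -0.20 with trends removed, with or without the replicate block, and EREG ran from -0.52 to 0.15 and ERBB2 from -0.038 to 0.17 with 1 pool left out. Depth limits EPGN, at or under 3 counts in all libraries but 1.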
